A study of Mus musculus with 6 samples.

Results

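The genes described here are the CDK inhibitors of the mouse and the retinoblastoma gene, 8 genes chosen by name: *Cdkn1a*, *Cdkn1b*, *Cdkn1c*, *Cdkn2a*, *Cdkn2b*, *Cdkn2c*, *Cdkn2d* and *Rb1*. All 8 were among the 53657 gene names counted, and all 8 were among the 19656 genes with enough counts to be tested. They were measured by RNA-seq in sorted spermatogonia of 3 WT and 3 MUT adult mice, each mouse giving 1 sample, 3 months after tamoxifen.

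All of the mice carried *Gfra1*-creERT2, a tamoxifen-activated Cre recombinase under the *Gfra1* promoter, together with a tdTomato reporter, and all received tamoxifen. MUT mice also carried an FR-*Hras* G12V allele, in which Cre removes the floxed wild-type copy so that the mutated protein is made from the endogenous *Hras* promoter, and they were heterozygous for it. The WT mice were littermate controls that lacked that allele. The background was mixed, and Cre is active in germ cells and not in the somatic cells of the testis, so tdTomato-positive, MCAM-bright cells were sorted as undifferentiated spermatogonia. The comparison asks whether MUT and WT spermatogonia differed in the genes that hold a cell at the G1 phase.

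CDK inhibitors are small proteins that block the cyclin-dependent kinases which push a cell from G1 into DNA replication. Those of the INK4 family bind CDK4 and CDK6, whereas those of the CIP/KIP family bind cyclin-CDK complexes more broadly. The RB protein is the substrate that these kinases inactivate, and while active it holds E2F factors in check. In cultured fibroblasts, forced expression of oncogenic Ras induces p16INK4a, p19ARF and p21 and drives the cells into senescence, a durable arrest called oncogene-induced senescence.

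*Cdkn2a* lies on the minus strand of chromosome 4, at chr4:89274471-89294653 (GRCm38), next to *Cdkn2b* at chr4:89306289-89311032. It makes a pair of unrelated proteins from alternative first exons. The upstream start gives p19ARF, which restrains MDM2, and the downstream start gives p16INK4a. In the annotation of the same build, transcript Cdkn2a-202 begins with an exon at chr4:89294334-89294653 and Cdkn2a-201 with an exon at chr4:89281986-89282192, and the 2 share the downstream exons. One count per gene therefore covers both products, and ARF and INK4a could not be measured apart. The sequences just before each start are shown because the products of the gene differ in where they start. They read 5′ to 3′ on the minus strand, come from the RefSeq promoter table for GRCm38.p6, and have each CpG in capitals. The first spans chr4:89294654-89294869 and the second chr4:89282193-89282442.
Cdkn2a upstream start (ARF): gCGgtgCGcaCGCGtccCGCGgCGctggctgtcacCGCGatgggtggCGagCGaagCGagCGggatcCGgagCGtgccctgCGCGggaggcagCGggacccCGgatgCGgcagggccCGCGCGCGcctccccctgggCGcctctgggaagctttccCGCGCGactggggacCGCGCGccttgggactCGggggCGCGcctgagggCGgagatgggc
Cdkn2a downstream start (INK4a): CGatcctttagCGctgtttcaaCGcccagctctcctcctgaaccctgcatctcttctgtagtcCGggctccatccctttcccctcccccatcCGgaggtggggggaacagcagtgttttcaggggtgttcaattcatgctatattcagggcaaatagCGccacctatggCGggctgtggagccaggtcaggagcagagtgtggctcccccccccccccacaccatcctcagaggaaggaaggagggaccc

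The ARF sequence held 35 CpG in 216 bases and the INK4a sequence 7 in 250 bases. In windows of 300 bases, from 250 before to 50 after a start, the ARF start had 45 CpG and the INK4a start 12. Of 32851 such windows in the RefSeq table, 98.1% had fewer CpG than the first and 60.4% had fewer than the second. The table matched 9 windows of 6 of the 8 genes, all but *Cdkn1c* and *Rb1*. An E2F-like motif, TTTNNCGC on either strand, was present in 2 of the 9, both of *Cdkn2a*, and in 5.17% of all windows. The Sp1 box GGGCGG on either strand was present in 7 of the 9 and in 35.7% of all windows. These matches describe the letters of the windows and no binding was measured.

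The libraries were alike in depth, at 22729292 to 23550433 counted fragments each. *Hras*, whose counts do not separate the alleles, was at 60.7 ± 4.21 CPM (counts scaled by TMM-normalized library size; SD, n = 3) in WT and 66.7 ± 4.97 CPM in MUT. All 13 markers of undifferentiated spermatogonia were detected. Their summed level was 4193 to 4800 CPM in WT and 4273 to 4861 CPM in MUT. The list includes *Mcam*, the antigen of the sort, and no other sorted population was in the series. The sum is therefore no independent check that the cells were undifferentiated spermatogonia. Genes of other cells were present too. The 7 macrophage markers summed to 845.1 to 1388 CPM in WT and 750.8 to 943.1 CPM in MUT, and the 9 spermatocyte and spermatid markers to 1220 to 1917 CPM and 971.9 to 1508 CPM. Leydig, Sertoli, and B and plasma cell markers summed to at most 67.3, 144.6 and 133.8 CPM in any sample. The macrophage and the spermatocyte and spermatid sums were highest in WT replicate 3, and none of these markers was at 0 in all samples. In bulk RNA, fewer cells of a type and less RNA per cell cannot be told apart.

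No difference between MUT and WT was detected in any of the 8 genes. In edgeR's quasi-likelihood test 0 of 8 passed an FDR of 0.1, at which 0.0102% of all tested genes were called. The adjusted p was 0.998 for each (Benjamini-Hochberg). With so few genes called anywhere, 0 of 8 does not show that the genes are unchanged. By unadjusted p under 0.05 the count was also 0 of 8, against 2.78% of all genes. In every gene the 3 MUT values overlapped the 3 WT values. The groups were separate in 7.69% of all genes, so 0 of 8 is near the share over all genes. The p-values measure the spread between these mice, and with 3 against 3 an exact two-sided permutation test of a single gene cannot go below 0.1.

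The intervals set a limit on a rise. For all 8 genes the 95% interval of the fold change ended below a 1.5-fold increase, as it did for 75.8% of all tested genes. It lay within 1.5-fold in both directions for 6 of 8, against 59.1% of all genes, the exceptions being *Cdkn1a* and *Cdkn2b*, whose lower bounds passed a 1.5-fold decrease. Of the 8 log2 fold changes, 6 were negative and 2 positive, with a median of -0.063 where the median of all tested genes was 0.0066. Leaving out 1 mouse moved the median of the 8 to between -0.15 (without WT replicate 2) and -0.023 (without WT replicate 3).

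**Figure D1:**
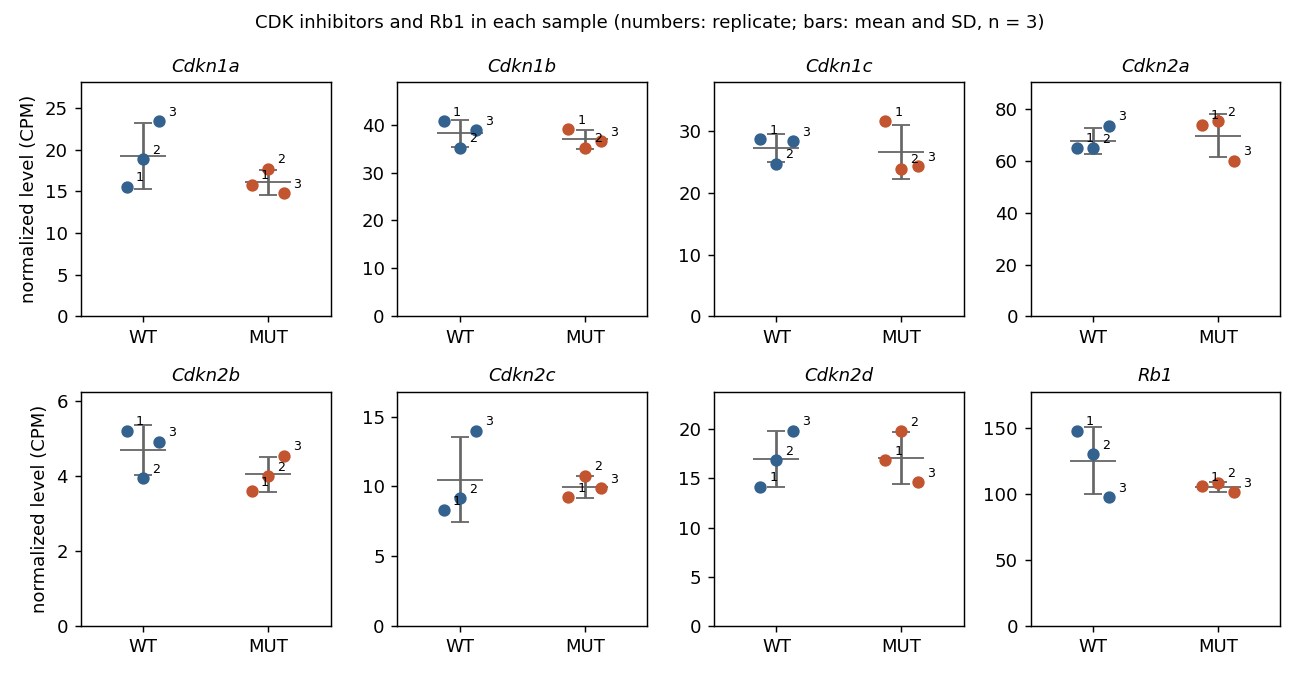
Normalized level (CPM, linear axis from 0) of each gene in the 3 WT (blue) and 3 MUT (red) samples, numbered by replicate, with the mean and SD as bars. WT and MUT points overlap in all 8 panels, and relative to the mean the widest WT spreads are those of Cdkn2c, Cdkn1a and Rb1 (coefficients of variation 29.3%, 20.5% and 20.3%).

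Among the INK4 genes, *Cdkn2a* was at 65.1, 64.8 and 73.6 CPM in WT replicates 1 to 3 and at 74.0, 75.3 and 60.2 CPM in MUT replicates 1 to 3. The highest and the lowest of the 6 values were both MUT. MUT over WT was 0.041 on the log2 scale (standard error 0.10), and its 95% interval ran from 0.878-fold to 1.21-fold. This interval is for ARF and INK4a counted together.

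*Cdkn2b*, which encodes p15INK4b, a TGF-beta-responsive inhibitor of CDK4 and CDK6, had few counts, 119, 92 and 116 in WT and 82, 92 and 106 in MUT. These were 5.2, 3.93 and 4.90 CPM in WT and 3.58, 3.99 and 4.53 CPM in MUT. WT replicate 2 lay among the MUT samples, with MUT replicates 2 and 3 above it. On the log2 scale MUT over WT was -0.21 (standard error 0.183), with an interval from 0.646-fold to 1.15-fold.

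*Cdkn2c*, encoding p18INK4c, at chr4:109660876-109667189 on the minus strand, was at 8.30, 9.15 and 13.99 CPM in WT and at 9.22, 10.8 and 9.87 CPM in MUT. WT replicate 3 was above every other sample, and the remaining WT samples were below every MUT sample. The log2 fold change was -0.075 (standard error 0.203) and became 0.19 without WT replicate 3 (unadjusted p = 0.218), so its sign rested on that mouse. The interval was 0.689-fold to 1.31-fold.

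*Cdkn2d*, encoding p19INK4d, at chr9:21288410-21291407 on the minus strand, was at 14.2, 16.9 and 19.9 CPM in WT and at 16.8, 19.8 and 14.6 CPM in MUT. Both groups covered nearly the same range. The log2 fold change of 0.0099 (standard error 0.160) was the smallest of the 8 in absolute size, with an interval from 0.782-fold to 1.30-fold.

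In the CIP/KIP family, *Cdkn1a* encodes p21, the principal p53-induced inhibitor of CDK2, and lies at chr17:29090979-29100722 on the plus strand. It was at 15.6, 18.9 and 23.4 CPM in WT and at 15.8, 17.7 and 14.8 CPM in MUT. WT replicate 1 lay among the MUT samples, and WT replicate 3 was the highest. Its log2 fold change of -0.26 had a standard error of 0.158 and an unadjusted p of 0.137 (edgeR), with an interval from 0.650-fold to 1.07-fold. It was -0.096 without WT replicate 3 and -0.40 without WT replicate 1 (edgeR, unadjusted p = 0.0263), with an adjusted p of at least 0.858 whichever mouse was left out.

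*Cdkn1b*, encoding p27, at chr6:134920401-134925513 on the plus strand, was at 40.7, 35.2 and 38.8 CPM in WT and at 39.1, 35.2 and 36.5 CPM in MUT. It had the narrowest interval of the 8, 0.843-fold to 1.11-fold, around a log2 fold change of -0.050 (standard error 0.0857).

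*Cdkn1c*, encoding p57, an imprinted gene at chr7:143458339-143461050 on the minus strand, was at 28.8, 24.7 and 28.4 CPM in WT and at 31.6, 23.9 and 24.3 CPM in MUT. MUT replicate 1 was the highest of the 6 samples and the other MUT samples were the lowest. Its log2 fold change was -0.036 (standard error 0.128). An antisense gene covers 625 bases of its exons on the opposite strand, 30.7% of its exon length. The counting ignored strand and left out fragments that fell on several genes, so *Cdkn1c* is undercounted there, and the antisense gene itself had 0 to 2 counts per sample.

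*Rb1*, at chr14:73183673-73325822 on the minus strand, was at 147.7, 129.8 and 97.5 CPM in WT and at 105.7, 108.2 and 101.3 CPM in MUT. WT replicates 1 and 2 were above every MUT sample and WT replicate 3 was below every MUT sample, so that the WT samples spread over 20.3% of their mean (coefficient of variation) and the MUT samples over 3.30%. Its log2 fold change of -0.25 had a standard error of 0.134 and an unadjusted p of 0.0965 (edgeR). Without WT replicate 3 it was -0.40, with an unadjusted p of 0.00045 but an adjusted p of 0.527. When same-numbered WT and MUT samples were treated as pairs (a replicate block), its unadjusted p was 0.0389 and its adjusted p 0.717, in a fit that called 0.0661% of all genes. Exons of *Rcbtb2* and *Lpar6* overlap 8.11% and 6.78% of its exon length on the other strand, where fragments were not counted.

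**Figure D2:**
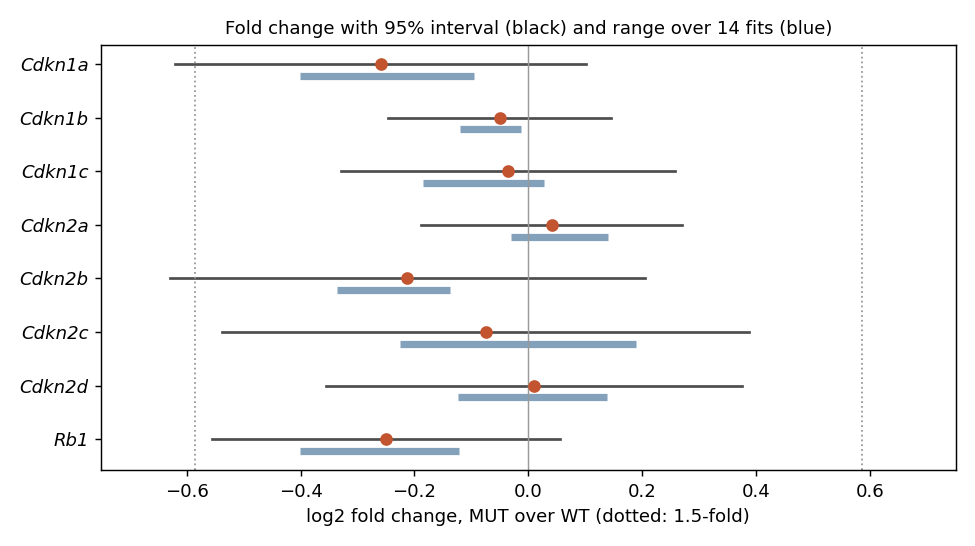
Log2 fold change of MUT over WT (red points) with the 95% interval from edgeR (black lines), and the range of the estimate over 14 fits (blue bars); dotted lines mark 1.5-fold. Every interval crosses 0 and none reaches a 1.5-fold rise; the blue bars of Cdkn1c, Cdkn2a, Cdkn2c and Cdkn2d cross 0.

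The limit on a rise held in each fit that was run. Over 14 fits, which changed the tool, the scaling, the filter, the block or left out 1 mouse at a time, the highest upper bound of any of the 8 genes was 1.44-fold, for *Cdkn2c*. For *Cdkn2a* it was 1.26-fold and for *Cdkn1a* 1.16-fold. The *Cdkn2a* bound is for ARF and INK4a counted together, and it does not hold for either product alone. No gene of the 8 passed an FDR of 0.1 in any of the 14 fits.

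Levels of different genes were compared as TPM, which divides each count by exon length before scaling to the library. *Cdkn2a* was the highest, at 210.6, 208.8 and 228.4 TPM in WT and 234.6, 241.2 and 193.4 TPM in MUT. Its mean of 219.5 TPM was above 96.4% of tested genes and made up 46.9% of the sum of the 8. Its exon length here joins both transcripts, which makes this a low estimate of their sum. *Rb1* followed at 71.6 TPM, then *Cdkn1c* at 49.4, *Cdkn2d* at 40.4, *Cdkn1b* at 30.9, *Cdkn1a* at 29.7, *Cdkn2c* at 14.2 and *Cdkn2b* at 11.7 TPM. The values of *Cdkn1c* and *Rb1* are low estimates too, because fragments on their overlapped exons were not counted. For *Cdkn1c* the overlap was 30.7% of the exon length. The order, the shares and the gaps between genes were not corrected for this.

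The gap from *Cdkn2a* to *Rb1* was 3.06-fold and was present in 6 of 6 samples. The neighbours *Cdkn1c* and *Cdkn2d*, *Cdkn1b* and *Cdkn1a*, and *Cdkn2c* and *Cdkn2b* had overlapping ranges and were not separated beyond their spread. The adjacent genes *Cdkn2a* and *Cdkn2b* stood at opposite ends of the order, with a ratio of 17.4 ± 2.38 (SD, n = 3) in WT and 20.9 ± 4.56 in MUT. Summed over the 4 INK4 genes, the level was 283.1 ± 19.9 TPM in WT and 288.5 ± 30.7 TPM in MUT. Summed over the 3 CIP/KIP genes it was 113.6 ± 6.50 TPM and 106.4 ± 8.44 TPM. For INK4 the difference between the groups was smaller than either SD, and for CIP/KIP it lay between the SDs.

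**Figure D3:**
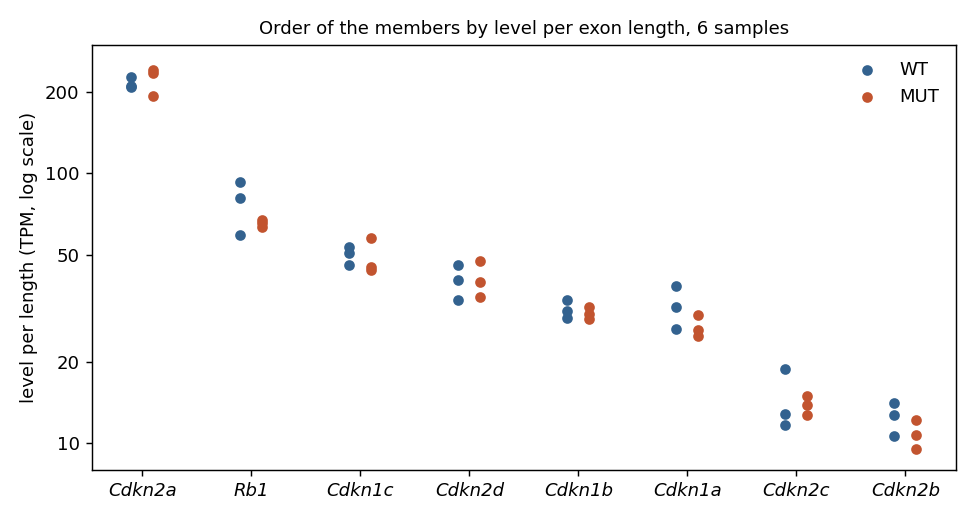
Level per exon length (TPM, log axis) of each gene in the 3 WT (blue) and 3 MUT (red) samples, in the order of the mean. Cdkn2a is separate at about 3.06 times Rb1 in the mean, and the lowest pair, Cdkn2c and Cdkn2b, overlaps.

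Some pairs of the genes had high coefficients of correlation over the 6 samples and other pairs did not. WT replicate 3 was the highest WT sample for *Cdkn1a*, *Cdkn2a*, *Cdkn2c* and *Cdkn2d* and the lowest for *Rb1*. Over the 6 samples, log2 CPM of *Cdkn1a* correlated with that of *Cdkn2c* (Pearson r = 0.805) and *Cdkn2d* (r = 0.777), *Cdkn2a* with *Cdkn2d* (r = 0.818), and *Cdkn1b* with *Cdkn1c* (r = 0.856). *Cdkn2c* and *Rb1* ran opposite (r = -0.733). With the group means removed, *Cdkn1a* had r = 0.911 with *Cdkn2c* and r = 0.949 with *Cdkn2d*, and *Cdkn2c* had r = -0.926 with *Rb1*. These coefficients were picked from all pairs of the genes and are among the largest in absolute size. Other pairs were weak or negative, such as *Cdkn1c* with *Rb1* (r = 0.04), *Cdkn1a* with *Cdkn1b* (r = -0.091) and *Cdkn2a* with *Cdkn2b* (r = -0.35). The coefficients describe 6 points that share library and normalization. How often pairs of other genes reach such values was not tested, so they do not show that the genes vary together.

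Other quantities moved with WT replicate 3. Its macrophage sum of 1388 CPM and its spermatocyte and spermatid sum of 1917 CPM were the highest of the 6. Among genes with a mean of at least 10 CPM, its short genes were also high and its long genes low. Genes of up to 1500 exon bases had a median deviation of 0.16 (log2) there and genes over 5000 bases one of -0.11. *Rb1*, with 6015 exon bases, falls in the long class and *Cdkn2a*, with 1172, in the short class. *Cdkn1a* and *Cdkn2c*, with 2223 and 2686 bases, fall in neither class. The part of these quantities in the values of *Cdkn1a*, *Cdkn2a*, *Cdkn2c* and *Rb1* was not tested.

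**Figure D4:**
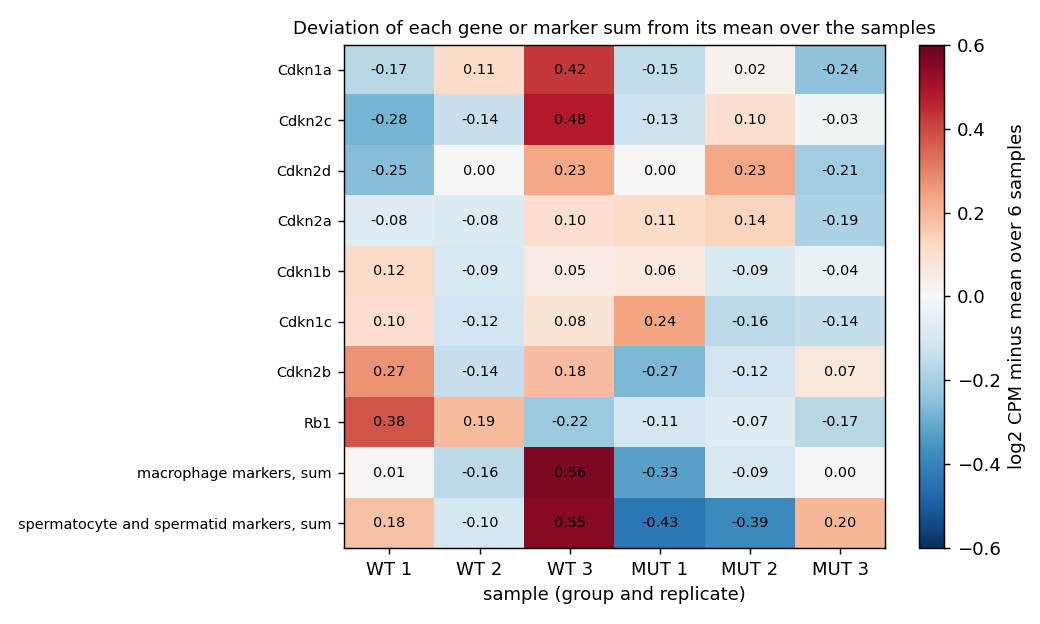
Deviation of log2 CPM from the mean over the 6 samples (colour and printed number) for the 8 genes and for the summed macrophage and the summed spermatocyte and spermatid markers. In WT replicate 3, Cdkn1a (0.42), Cdkn2c (0.47), the macrophage sum (0.56) and the spermatocyte and spermatid sum (0.55) are all high, and Rb1 (-0.22) is low.

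The genes most like *Cdkn2a* over the 6 samples, among 10583 genes of at least 10 CPM, were *Siah1b* (r = 0.994), *Smagp* (r = 0.988) and *C1qbp* (r = 0.988). Those most like *Rb1* were *Pank4* (r = 0.992), *Rprd1b* (r = 0.991) and *Ripk3* (r = 0.990). With 6 points and this many genes searched, such values describe these samples only.

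The partners of the inhibitors and other related genes were examined next, in short lists. At the FDR of 0.1 only 0.0102% of all tested genes were called. In lists this short, 0 calls therefore do not show that the genes are unchanged. Of 9 G1 cyclin and CDK genes 0 passed the FDR. A positive log2 fold change was found in 8 of 9, and in 10191 of the 19656 tested genes. *Cdk6*, a target kinase of the INK4 proteins, was at 77.8, 69.2 and 56.3 CPM in WT and 84.0, 92.3 and 79.0 CPM in MUT, with all MUT samples above all WT samples. For *Cdk6*, MUT over WT was 0.33 on the log2 scale, with a standard error of 0.118 (edgeR, unadjusted p = 0.0222, adjusted p = 0.998). Without MUT replicate 1, or without MUT replicate 2, no gene of the list had an unadjusted p under 0.05 (edgeR). *Cdk4*, the most abundant of the list per length, was at 188.1 ± 5.99 CPM in WT and 196.8 ± 11.1 CPM in MUT. The log2 fold changes of *Cdk2*, *Ccnd1*, *Ccnd2*, *Ccnd3* and *Cdc25a*, a phosphatase that activates CDK2, were 0.099, 0.15, 0.11, -0.040 and 0.14.

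Of 17 genes of the RB family and its E2F partners 0 passed, with 11 positive and 6 negative and a median of 0.031, which was 0.0004 without WT replicate 1, -0.0006 without MUT replicate 2 and 0.060 without MUT replicate 3. *Rbl1* (p107) had a log2 fold change of -0.0064 with an interval from -0.15 to 0.14, and *Rbl2* (p130) one of -0.31 (unadjusted p = 0.108). *E2f8*, a repressor E2F, had 0.21 (unadjusted p = 0.0767), and *Lin52*, of the complex that p130 joins in quiescent cells, 0.30 (unadjusted p = 0.0936). *Tfdp1*, the partner that E2F factors bind DNA with, was at 190.1 ± 2.05 CPM in WT and 197.2 ± 8.19 CPM in MUT. Of 18 E2F target and proliferation genes 0 passed, although 15 had a positive log2 fold change and the median was 0.083, where 10191 of the 19656 tested genes were positive. That median was 0.033 without MUT replicate 2, 0.036 without WT replicate 1 and 0.13 without MUT replicate 3. The list includes the helicase subunits *Mcm2* (0.15), *Mcm7* (0.12), *Mcm4* (0.12) and *Mcm3* (0.083).

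Of 18 genes of the p53 branch 0 passed, 9 positive and 9 negative. *Trp53*, encoding p53, was at 88.1 ± 2.56 CPM in WT and 92.7 ± 0.912 CPM in MUT, with a log2 fold change of 0.073. *Mdm2*, both a p53 target and its ubiquitin ligase, had -0.034 with an interval from -0.17 to 0.11. The targets *Pmaip1* (-0.22), *Sesn1* (-0.15) and *Sesn2* (-0.13) were negative and *Bax* (0.069) positive.

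Of 21 regulators of the *Cdkn2a*-*Cdkn2b* locus 0 passed, with a median of 0.040 that was 0.0029 without WT replicate 3 and 0.065 without MUT replicate 3. These include Polycomb genes, whose products silence the locus in many cells. The log2 fold changes of *Bmi1*, *Cbx7*, *Ezh2*, *Pcgf2*, *Cbx2* and the repressor *Tbx3* were 0.040, -0.091, 0.14, 0.10, 0.084 and 0.18. Of 13 regulators of p21 and p27 0 passed, and *Skp2*, whose ligase degrades p27, had -0.049. Its partners *Cul1* and *Skp1a* had 0.062 and 0.022, and *Dtl* and *Ddb1*, of the ligase that degrades p21 in S phase, 0.10 and 0.11.

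Of 11 nuclear and lysosomal senescence genes 0 passed, and 9 had a positive value, where 10191 of the 19656 tested genes were positive. The list was not chosen for 1 direction of change, so this count of signs is no measure of senescence. *Lmnb1*, encoding lamin B1, which falls in senescent cells, was at 107.8 ± 1.90 CPM in WT and 111.6 ± 9.52 CPM in MUT (log2 fold change 0.051, interval -0.12 to 0.22). *Glb1*, the source of senescence-associated beta-galactosidase, was at 26.7 ± 1.34 CPM and 25.98 ± 0.244 CPM (log2 fold change -0.039). The chromatin genes *Hmga1* and *Hmgb1* had 0.17 and 0.16.

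Of 24 senescence-associated secreted factors 23 were tested and 0 passed, with 7 positive, 16 negative and a median of -0.14. The sign of that median rested on 1 mouse, since it was 0.064 without WT replicate 3 and -0.29 without WT replicate 2. *Mmp3* had no count in any sample. *Tnf* (-0.49, unadjusted p = 0.0752), *Igfbp5* (-0.37, unadjusted p = 0.0619) and *Tgfb1* (-0.17) had the smallest p-values. *Il1b*, the most abundant per length, was at 64.7, 67.1 and 106.0 CPM in WT and 53.5, 92.2 and 68.4 CPM in MUT, and was highest in WT replicate 3. Macrophages also make several of these factors, and all 7 macrophage markers had negative log2 fold changes, from -0.38 to -0.24, none passing the FDR. Their part in the values of the secreted factors was not tested.

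**Figure D5:**
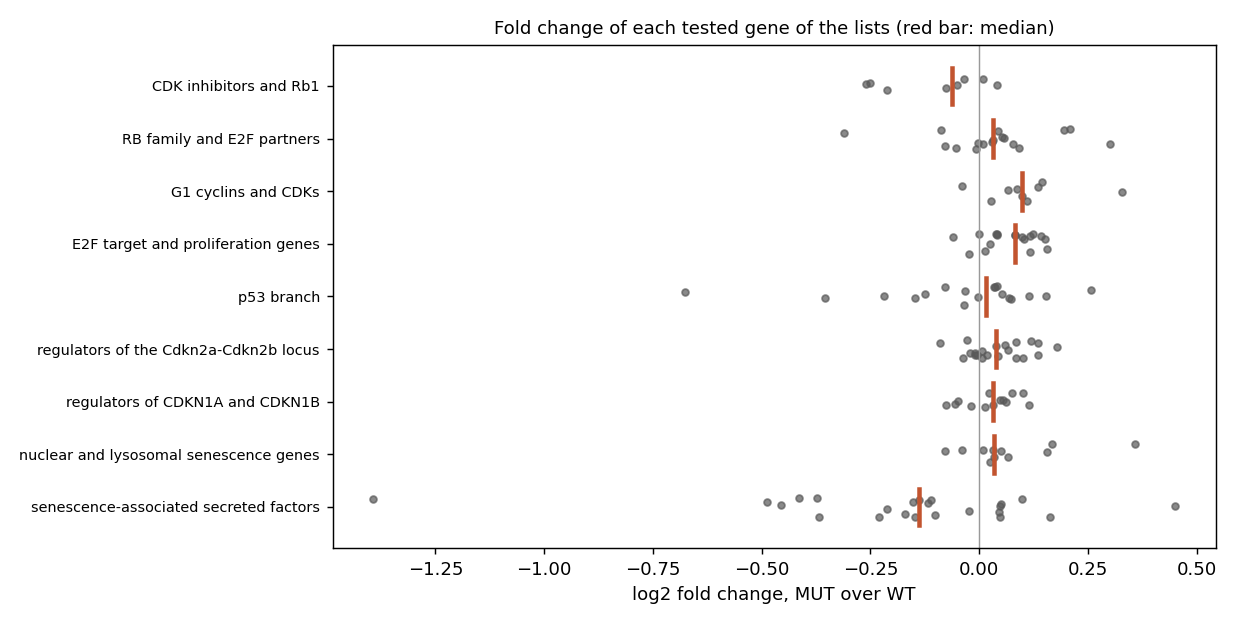
Log2 fold change of MUT over WT for every tested gene of the 9 lists (points) and the median of each list (red bars). Most genes lie close to 0; the secreted factors spread the widest, with Mmp12 at -1.39, and their median of -0.14 was 0.064 without WT replicate 3.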

How the data were processed

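For each of the 6 samples the deposited values are raw fragment counts by gene, not normalized. Per the file headers these came from featureCounts 1.6.2 on the exons of GENCODE vM17 (GRCm38.p6), unstranded although the library kit marks strand; fragments that mapped to several places or genes were not counted. The submitters' processing notes name STAR and FastQC, without versions. Counts were scaled by TMM in edgeR 4.0.16 (R 4.3.3), filterByExpr kept 19656 genes, and the quasi-likelihood test compared MUT with WT with genotype as the only term (Benjamini-Hochberg, FDR 0.1). Standard errors and 95% intervals came from the F statistic and its degrees of freedom. TPM used the exon lengths in the files. Log2 CPM used a prior count of 2. The scripts were tested on simulated data.

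The genes and lists were chosen with earlier results of these data known. All 8 genes are named, and from each list those with the smallest p, the most abundant and a fixed set of regulators. Alternatives were DESeq2 1.42.0, limma 3.58.1 voom, other scaling and filters, the replicate number as a block, an FDR of 0.05 and leaving out each mouse. Deviations of same-numbered WT and MUT samples correlated at 0.304, 0.156 and 0.395 over 10583 genes, all above the 0.1 taken as pairing; the differently numbered WT 2 and MUT 1 correlated at 0.326, so these values alone do not settle the pairing. The WT mice were littermate controls, but the study does not state which of the sequenced mice shared a litter. The numbers come from the labels, and the main comparison used no block. Depth was 22729292 to 23550433 counts per sample. Near-identical copies and overlapping genes are undercounted.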

Additional observations from a re-analysis of the deposited data

How the results depend on the processing

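No gene of the 8 and no gene of the pathway lists gained a call under any alternative tried, including the replicate block and each mouse left out. The number of genes called over all tested was 2, and became 9 with DESeq2, 4 with limma voom, 5 without a filter, 0 with at least 10 counts in every sample (479 at an unadjusted p under 0.05 in edgeR), and 1 at an FDR of 0.05. Under the replicate block edgeR called 13 and DESeq2 55. Leaving out 1 mouse gave 0 to 6 calls, 0 without MUT replicate 2 (292 at an unadjusted p under 0.05 in edgeR), 1 without MUT replicate 1, 5 without WT replicate 3 and 6 without MUT replicate 3.

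The sign of the log2 fold change depended on single mice in 4 genes. It ranged from -0.18 to 0.027 for *Cdkn1c*, from -0.031 to 0.14 for *Cdkn2a*, from -0.23 to 0.19 for *Cdkn2c* and from -0.12 to 0.14 for *Cdkn2d*. For *Cdkn1c* it was 0.022 without MUT replicate 2 and 0.027 without MUT replicate 3. For *Cdkn2a* it was -0.0029 without WT replicate 2, -0.0087 without MUT replicate 1 and -0.031 without MUT replicate 2. For *Cdkn2c* it was 0.19 without WT replicate 3. For *Cdkn2d* it was -0.11 without WT replicate 1, -0.0056 without WT replicate 2, -0.12 without MUT replicate 2 and -0.0026 with at least 10 counts in every sample. *Cdkn1a*, *Cdkn1b*, *Cdkn2b* and *Rb1* were negative in all 14 fits. The cause was not tested. *Cdkn2b* had the fewest counts of the 8 genes, 82 to 119 per sample.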
